A study of Mus musculus with 51 samples.

Results

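The 10 genes described here are expressed in the endothelium, the cell layer that lines blood vessels, and were chosen by name: Cdh5, Pecam1, Cldn5, Emcn, Kdr, Flt1, Tek, Tie1, Eng and Bmx. All 10 were found in both femur expression tables, among 23358 entries in the VitC experiment and 25938 in the Tet experiment, and all 10 passed the filter on low values in both. Femoral bone with the marrow flushed out and the periosteum removed was measured by RNA-seq in 21 mice. All mice of the VitC experiment were 20 weeks old at sampling. In it, 3 wild-type C57BL/6 mice (WT), which make their own vitamin C (VitC), were compared with Gulo knockout mice. The knockout mice carried the Gulotm1Mae allele and cannot make it. Of these, 3 received 3.3 g/L VitC in the drinking water until sampling at 20 weeks of age (VitC+), and 3 received it until 15 weeks and then none for 5 weeks (VitC+/-). The other experiment covered mice aged 11 weeks, 3 in each of 4 groups, all of which carried Prrx1-Cre: Ctrl mice had wild-type Tet genes, and the Tet1 cKO, Tet2 cKO and Tet1/2 cKO mice had floxed alleles of Tet1, of Tet2 or of both. Prrx1-Cre is active in limb mesenchyme, the source of bone-forming cells, so deletion was not aimed at endothelial cells. There are also peak lists of 5-hydroxymethylcytosine (5hmC) for femurs of the groups VitC+, VitC+/-, Ctrl and Tet1/2 cKO. MC3T3-E1 cells, a pre-osteoblast line from mouse calvaria and not an endothelial one, have peak lists of 5hmC, H3K27me3 and H3K9me3 for cultures given 50 µg/ml VitC (called VitC+ here) and cultures given none (VitC-). The 5hmC cultures were at day 28, and those for the histone marks at day 7 by the methods and day 28 by the labels.

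Endothelial cells hold together through adherens and tight junctions, and the surface proteins at those junctions also set how readily cells and solutes cross the vessel wall. Their growth and quiescence are set by secreted ligands that bind receptor kinases: VEGF family members bind Kdr and Flt1, angiopoietins bind Tek, and BMP9 and TGF-beta ligands act through complexes that contain Eng. In long bones a specialised capillary type that is rich in Emcn and Pecam1 lies close to the growth plate and to osteoprogenitors. VitC is a cofactor of the Tet enzymes, which oxidise 5-methylcytosine to 5hmC, and of histone demethylases that remove methyl groups from H3K9 and H3K27.

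The junction and surface genes are Cdh5 (chr8:104101613-104144504, plus strand), encoding VE-cadherin, Pecam1 (chr11:106654213-106715281, minus), encoding CD31, Cldn5 (chr16:18776847-18778262, plus), encoding the tight junction protein claudin-5 in 1 coding exon, and Emcn (chr3:137341062-137431069, plus), encoding the sialomucin endomucin. The receptor genes are Kdr (chr5:75932827-75979072, minus) and Flt1 (chr5:147561604-147726438, minus) for VEGF ligands, Tek (chr4:94739086-94874976, plus) and its relative Tie1 (chr4:118471191-118489849, minus), and Eng (chr2:32646595-32682669, plus), encoding endoglin. Bmx (chrX:164192842-164258193, minus) encodes a cytoplasmic tyrosine kinase of the Tec family that is found in arterial endothelium and in myeloid cells. Coordinates are those of RefSeq on GRCm38.p6, the assembly that the authors' mm10 build corresponds to.

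Promoter sequences of RefSeq on GRCm38.p6 matched 8 of the 10 genes, without Cdh5 and Pecam1. The 250 bases before the start site are shown for Eng and Tie1, which were higher in VitC+/- than in WT femurs, and for Cldn5 and Bmx, whose levels went another way. Capitals mark GGAAG or its reverse complement CTTCC, a form of the core recognised by ETS factors, a family with members that act in endothelium. In Bmx they mark TGATAA or its reverse complement, a form of the motif that GATA factors bind.
Eng, chr2:32646345-32646594, plus strand: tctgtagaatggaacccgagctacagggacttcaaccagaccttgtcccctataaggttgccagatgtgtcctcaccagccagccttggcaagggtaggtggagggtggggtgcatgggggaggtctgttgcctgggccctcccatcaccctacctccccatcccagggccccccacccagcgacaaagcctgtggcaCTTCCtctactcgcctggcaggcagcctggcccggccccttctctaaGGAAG
Tie1, chr4:118489850-118490099, minus strand: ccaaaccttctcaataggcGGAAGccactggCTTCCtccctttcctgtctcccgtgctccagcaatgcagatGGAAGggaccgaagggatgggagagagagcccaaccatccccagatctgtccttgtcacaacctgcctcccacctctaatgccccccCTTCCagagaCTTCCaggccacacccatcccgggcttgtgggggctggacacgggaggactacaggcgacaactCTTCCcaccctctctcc
Cldn5, chr16:18776597-18776846, plus strand: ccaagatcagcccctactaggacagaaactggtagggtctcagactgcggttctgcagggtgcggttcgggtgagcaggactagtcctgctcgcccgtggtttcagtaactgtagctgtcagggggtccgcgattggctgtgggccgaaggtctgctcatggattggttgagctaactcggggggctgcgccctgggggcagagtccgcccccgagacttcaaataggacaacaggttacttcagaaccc
Bmx, chrX:164258194-164258443, minus strand: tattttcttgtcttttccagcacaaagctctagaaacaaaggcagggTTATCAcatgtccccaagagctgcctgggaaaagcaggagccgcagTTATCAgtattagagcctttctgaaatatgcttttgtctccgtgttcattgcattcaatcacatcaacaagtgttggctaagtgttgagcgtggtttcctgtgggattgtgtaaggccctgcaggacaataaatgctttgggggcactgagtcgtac
In these windows GGAAG or CTTCC occurred 6 times in Tie1, 2 times in Eng and not at all in Cldn5 or Bmx. Other forms of the ETS core, such as GGAA in Bmx, were not searched and stand in lower case. The counts are therefore of GGAAG and CTTCC alone. Over the 8 genes, 5 held GGAAG or CTTCC (Emcn, Kdr, Flt1, Tie1 and Eng), and so did 64.1% of the 32851 promoters of the table. The GATA motif was searched on both strands as GATA with A or T before it and A or G after it, was found 2 times in Bmx and in none of the other 7 genes, and is present in 26.5% of all promoters. The number of CG pairs ran from 1 in Emcn and 2 in Tek to 16 in Kdr and 23 in Flt1, beside a median of 6 over all promoters. By the gene coordinates given above, the windows of Kdr and Flt1 lay inside the gene, and those of Tek and Emcn partly so. These are matches of letters in a short window, chosen after the expression values were known, and show neither binding nor its absence.

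The reads that the VitC femur values imply numbered 7.6 M in WT replicate 1 and 31.1 to 47.5 M in the other 8 libraries, and those of the Tet femurs 28.6 to 49.8 M (M, 1e6 reads). Of the targeted genes, Gulo was listed at 0 in the library labelled WT replicate 3 and at a scaled RPKM of 0.24 in that labelled VitC+ replicate 1, against 0.54 and 0.44 in the other WT libraries. Normalized counts of Tet1 were 374 to 435 in Ctrl, 532 to 773 in Tet1 cKO and 415 to 485 in Tet1/2 cKO, and those of Tet2 were 2236 to 2512 in Ctrl, 1834 to 2245 in Tet2 cKO and 1851 to 2970 in Tet1/2 cKO. Gulo did not pass the filter on low values and was not tested, the differences of Tet1 and Tet2 from Ctrl did not pass the limma test, and values over whole genes do not test the deleted exons. The 10 neutrophil genes read as markers were above 0 in every library, with a summed scaled RPKM of at least 6833 against at most 170.9 for the 10 endothelial genes. In bulk tissue, fewer endothelial cells and less RNA per cell cannot be told apart.

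Levels per length were compared in the VitC femurs, as RPKM divided by a scaling factor per library (scaled RPKM), over all 9 libraries. Pecam1 was the most abundant of the 10 genes at 25.6 ± 5.8 (SD, n = 9), followed by Cldn5 at 25.1 ± 14.6, Eng at 16.4 ± 5.1, Emcn at 16.2 ± 6.3, Cdh5 at 13.1 ± 5.5 and Tie1 at 11.7 ± 2.8. Lower levels were found for Kdr at 6.17 ± 2.14, Bmx at 5.44 ± 2.21, Tek at 3.47 ± 0.89 and Flt1 at 3.42 ± 1.15. Of the neighbours in this order, only Emcn above Cdh5 and Tie1 above Kdr held in 9 of 9 libraries, and the other neighbours changed places in 2 to 4 libraries. Pecam1 led Cldn5 only in the VitC+/- mean (29.6 against 15.9), and Cldn5 was higher in the means of WT (22.7 against 19.0) and VitC+ (36.7 against 28.3). None of the 10 genes was at 0 in any library of either experiment.

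VitC+/- femurs were first compared with those of the wild type. These mice differ in Gulo genotype and in the source of VitC as well as in its withdrawal, which cannot be told apart here. Most of the endothelial genes were higher in VitC+/- than in WT femurs. Of the 10 genes, 6 were called higher, namely Cdh5, Emcn, Eng, Flt1, Tie1 and Pecam1, and 1 lower, Bmx (limma, Benjamini-Hochberg adjusted p under 0.05 over 12586 genes). The background in this comparison is wide, with 15.3% of all genes higher and 15.7% lower. The median difference over the 10 genes was 0.65 on the log2 scale, beside 0.01 over all genes tested. Log2 differences are of log2(scaled RPKM + 0.5), which understates changes of low genes.

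Among the junction and surface genes, Cdh5 read 6.62, 8.44 and 5.87 scaled RPKM in the WT libraries, 13.6, 12.9 and 14.2 in VitC+ and 19.6, 14.1 and 22.2 in VitC+/-. The WT values lay below all 6 values of the knockout mice, and VitC+/- exceeded WT 2.68-fold in mean level (log2 difference 1.35, SE 0.19, limma adjusted p = 0.00167). Emcn read 10.01, 8.75 and 8.19 in WT, 19.9, 16.0 and 20.0 in VitC+ and 20.6, 16.1 and 26.8 in VitC+/-. It showed the same order, with every WT library lowest and a log2 difference of 1.17 (SE 0.19, adjusted p = 0.00286) between VitC+/- and WT. Pecam1, which platelets and leukocytes carry as well as endothelium, read 20.9, 17.5 and 18.6 in WT, 31.6, 26.5 and 26.7 in VitC+ and 33.4, 24.4 and 31.0 in VitC+/-. Its 3 WT libraries were the lowest, and the log2 difference of 0.62 (SE 0.15) passed the threshold with an adjusted p of 0.0151.

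Cldn5 did not share this order. It read 44.4, 8.69 and 15.0 in WT, 50.5, 27.3 and 32.3 in VitC+ and 17.9, 16.3 and 13.7 in VitC+/-. WT replicate 1, the shallowest library, was far above the other WT libraries, so the WT values enclosed those of VitC+/- and the log2 difference was -0.18 (95% interval -1.28 to 0.91, adjusted p = 0.802). Without WT replicate 1 it turned to 0.45, with an adjusted p of 0.272. Pericyte and smooth muscle genes also summed highest in that WT library (160.2 scaled RPKM against 39.0 and 53.6 in WT replicates 2 and 3). Arterial genes did so too (127.5 against 55.3 and 75.2). The part of depth or of these cells in the Cldn5 value was not tested.

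Of the VEGF receptors, Flt1 read 1.76, 2.79 and 2.02 in WT, 3.23, 3.62 and 4.41 in VitC+ and 5.20, 3.21 and 4.52 in VitC+/-. All VitC+/- values exceeded all WT values, with a log2 difference of 0.83 (SE 0.22, adjusted p = 0.0199). Kdr, the main signalling receptor for VEGF, read 3.31, 5.26 and 3.81 in WT, 6.498, 7.195 and 10.7 in VitC+ and 5.91, 6.54 and 6.33 in VitC+/-. The VitC+/- and WT values did not overlap, but the log2 difference of 0.57 (SE 0.22) had an adjusted p of 0.0714 and did not pass.

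Tie1, an orphan receptor that modulates Tek signalling, read 9.02, 7.96 and 7.38 in WT, 15.06, 12.1 and 13.9 in VitC+ and 13.5, 12.4 and 13.8 in VitC+/-. The spread within groups was narrow, and VitC+/- exceeded WT by 0.67 on the log2 scale (SE 0.14, adjusted p = 0.00673). Tek itself, also called Tie2, read 2.94, 2.37 and 2.13 in WT, 3.98, 4.11 and 4.37 in VitC+ and 4.72, 3.43 and 3.20 in VitC+/-. All VitC+/- values lay above all WT values, with a log2 difference of 0.52 (SE 0.18) that missed the threshold at an adjusted p of 0.0583. Eng, the co-receptor for BMP9 and TGF-beta ligands, read 11.0, 11.4 and 8.53 in WT, 19.4, 14.9 and 20.2 in VitC+ and 17.8, 23.0 and 20.9 in VitC+/-. Its mean in VitC+/- was 1.99 times that in WT (log2 difference 0.97, SE 0.17, adjusted p = 0.004), with no overlap.

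Bmx was the exception in direction. It read 8.42, 4.92 and 7.70 in WT, 7.13, 6.22 and 5.15 in VitC+ and 3.32, 4.66 and 1.41 in VitC+/-. All 3 VitC+/- libraries lay below every WT and every VitC+ library, and Bmx fell by 1.13 on the log2 scale against WT (SE 0.35, adjusted p = 0.0341). Leaving out WT replicate 1, WT replicate 3, VitC+/- replicate 1 or VitC+/- replicate 3 raised that adjusted p to 0.0801, 0.106, 0.0668 and 0.0743. The calls for Pecam1 (limma adjusted p 0.0563 and 0.0613) and Flt1 (0.068 and 0.0789) were lost without WT replicate 3 and without VitC+/- replicate 1, and the number of genes called then fell from 7 to 4. Flt1 was also lost without VitC+/- replicate 3 (0.0552). Tek passed without WT replicate 1 (0.0364) and Kdr without WT replicate 2 (0.031). In all, 8 of the 10 genes had VitC+/- values wholly above the WT values and 1 wholly below, against 21.5% and 21.3% of all genes.

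**Figure D1:**
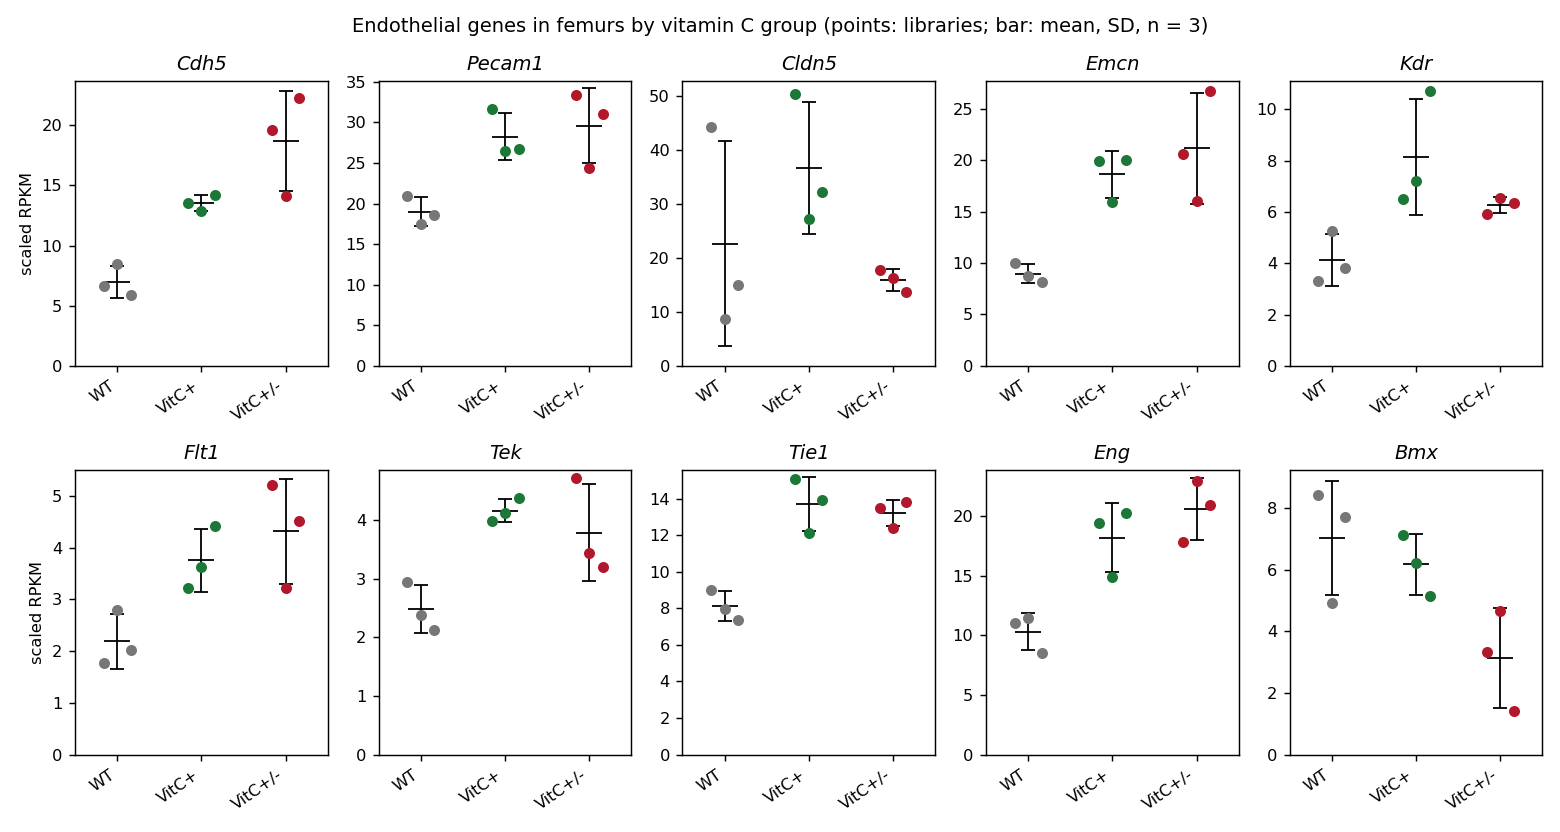
Scaled RPKM (vertical axis, from 0) of the 10 genes in each library of the VitC femurs, with the mean and SD of 3 libraries as bars. In 8 genes the 3 WT libraries are the lowest of the 9, while in Bmx the 3 VitC+/- libraries are.

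VitC+/- femurs were next compared with those of knockout mice that stayed on VitC, which differ in the last 5 weeks of supply. With limma, 0 of the 10 genes passed the test, beside 7.95% of all genes lower and 5.51% higher. That background, 1694 genes in all, ran from 489 to 2290 with single libraries left out. The median difference was 0.01 over the 10 genes and over all genes. At an unadjusted p under 0.05, 2 of the 10 genes were lower (Cldn5 and Bmx) and none higher, with 2049 and 1879 of the 12586 genes tested. Cldn5 at 15.9 ± 2.1 in VitC+/- against 36.7 ± 12.2 in VitC+ (SD, n = 3 each) differed by -1.14 on the log2 scale (95% interval -2.23 to -0.04, limma adjusted p = 0.145). Bmx at 3.13 ± 1.63 against 6.17 ± 0.99 differed by -0.98 (95% interval -1.76 to -0.21, adjusted p = 0.0876). In these 2 genes every VitC+/- library lay below every VitC+ library, as did 20.1% of all genes. The Cldn5 difference passed when only the 6 libraries compared were fitted (adjusted p = 0.0223) or when WT replicate 1 was left out of the fit (0.0244), and that of Bmx passed without VitC+/- replicate 2 (0.0436).

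The other 8 genes had overlapping values in VitC+/- and VitC+. Cdh5 had the largest positive difference, 0.43 (95% interval -0.002 to 0.86, adjusted p = 0.161), and Kdr the most negative, -0.32 (-0.81 to 0.16, adjusted p = 0.34). The remaining differences lay between -0.14 for Tek and 0.18 for Eng. Tie1 had the narrowest interval, from -0.35 to 0.26 around -0.05, and its sign turned to 0.09 with the RPKM as deposited, a scaling under which the median of all genes moved to 0.14.

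WT and VitC+ femurs, both from mice with VitC, were also compared. With limma, 0 of the 10 genes and 0% of the 12586 genes in all passed in either direction, although 8 of the 10 genes were lower in WT at an unadjusted p under 0.05, as were 1618 genes in all (and 1099 higher). In the same 8 genes (Cdh5, Pecam1, Emcn, Kdr, Flt1, Tek, Tie1 and Eng) every WT library lay below every VitC+ library, against 15.0% of all genes. Their log2 differences of WT minus VitC+ ran from -0.56 for Pecam1 to -1.01 for Emcn, with limma adjusted p from 0.0741 to 0.143. Cldn5 differed by -0.96 (adjusted p = 0.286) and Bmx by 0.15 (0.839). Without WT replicate 1, 4 genes passed (Cldn5, Emcn, Tie1 and Eng, adjusted p 0.0335 to 0.0479), as did 658 genes in all. Both comparisons with WT use the same 3 WT libraries, so a low set of WT values enters both.

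**Figure D2:**
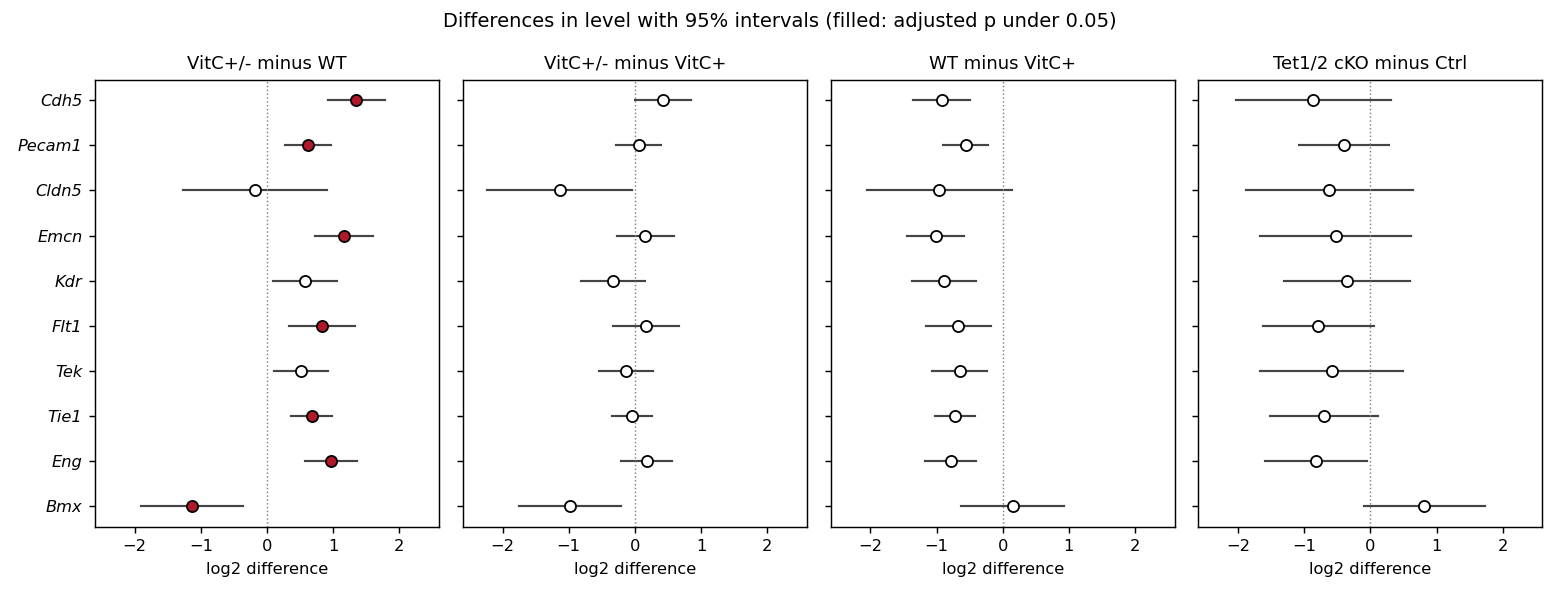
Log2 differences (horizontal axis) of the 10 genes in 4 comparisons of femurs, with 95% intervals from limma as lines and filled points where the adjusted p is under 0.05. The 7 filled points all belong to VitC+/- minus WT, where Bmx alone is negative among them.

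A wider list of 30 other endothelial genes, all measured, showed 4 genes lower and 0 higher in VitC+/- than in VitC+ (median difference -0.30), beside 7.95% of all genes lower and 5.51% higher. The 4 genes, named after their values were seen, were Icam2 (-1.38, limma adjusted p = 0.00229), an adhesion molecule, Acvrl1 (-1.31, 0.00195), the BMP9 receptor ALK1 that works with endoglin, Myct1 (-1.50, 0.00886) and Cd34 (-0.63, 0.0498). Against WT, 10 of the 30 genes were higher and 4 lower, beside 15.3% and 15.7% of all genes. Of the 3 most abundant genes of this list Plvap, which marks fenestrated vessels, rose by 1.39 (adjusted p = 0.000793), Lrg1 fell by 1.06 (0.0388) and Egfl7 differed by 0.72 (0.211). The arterial list of 9 genes had 1 gene lower than in VitC+, the gap junction gene Gja5 (-2.08, adjusted p = 0.0484, also named after its value was seen), with a median of -0.62 over the list, and 1 gene higher than in WT. Of the sinusoidal and lymphatic list, 6 of 8 genes were tested, with none called against VitC+ and 3 higher against WT. The lists are small beside these backgrounds, and nothing particular to them is read from the counts. Between WT and VitC+ none of these genes passed with limma, while 20 of the 30 wider endothelial genes had an unadjusted p under 0.05, 19 of them lower in WT.

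Of 13 ligand entries listed as partners of the receptors, 9 were tested in the VitC femurs. Vegfa, the ligand of Kdr and Flt1, read 9.83, 12.8 and 10.8 scaled RPKM in WT, 15.14, 15.07 and 19.6 in VitC+ and 19.4, 42.0 and 38.1 in VitC+/-. Its lowest VitC+/- value was just under its highest VitC+ value, with a log2 difference of 0.91 (SE 0.27, limma adjusted p = 0.0532) that did not pass, while against WT it rose by 1.46 (adjusted p = 0.0045). Angpt2, which can block Tek, and Angpt4, a Tek ligand, rose against WT by 1.34 (0.00206) and 1.30 (0.025), and differed from VitC+ by 0.18 and 0.38. Angpt1, the main activator of Tek, was at 1.91 ± 0.39 in VitC+/-, 2.963 ± 1.031 in VitC+ and 2.72 ± 0.97 in WT (SD, n = 3), with no call. Pgf, which binds Flt1, was at 5.37 ± 2.46, 9.96 ± 5.84 and 3.03 ± 1.92 in that order, also with no call. Of the Eng ligands, Gdf2 (BMP9) and Bmp10 were listed at 0 in 8 of 9 libraries each.

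Markers of other cells moved between the same groups. The counts of calls below stand beside 15.7% of all genes lower and 15.3% higher against WT. Against VitC+ the shares were 7.95% lower and 5.51% higher. Against WT, neutrophil genes were lower for 10 of 10, with summed scaled RPKM of 52277 to 71765 in WT, 29702 to 46192 in VitC+ and 6833 to 23289 in VitC+/-. The library with the lowest neutrophil sum, VitC+/- replicate 3, was also the library with the lowest Bmx, a gene that myeloid cells express. Megakaryocyte genes, which mark the cells that share Pecam1 and make platelets, summed to 345 to 791 in WT, 351 to 833 in VitC+ and 236 to 303 in VitC+/-, with 5 of 12 genes lower against either group. Adipocyte genes were higher for 7 of 9 tested against WT and summed to 107 to 197 in WT, 188 to 419 in VitC+ and 367 to 3161 in VitC+/-, the highest being replicate 2. Osteoblast and osteocyte genes summed to 1056 to 4069, 5652 to 11136 and 710 to 4486 in the same order. Pericyte and smooth muscle genes, from cells that wrap vessels, were lower for 1 of 11 genes against VitC+ and higher for 3 against WT, beside 7.95% of all genes lower and 15.3% higher in those comparisons. Osteoclast genes, from cells that resorb bone, summed to 808 to 890 in WT, 1941 to 2669 in VitC+ and 2967 to 6523 in VitC+/-. They were higher for 8 of 10 against WT (median 2.10) and for 4 of 10 against VitC+ (median 0.69). B cell genes summed to 50.5 to 169, 82.2 to 163 and 14.5 to 27.9 in the same order, with 9 of 10 lower against WT (median -2.11) and against VitC+ (median -2.11). None of the defining markers of the neutrophil, megakaryocyte, osteoblast, osteoclast, B cell and pericyte lists was at 0 in any VitC femur. Macrophage and monocyte genes summed to 1889 to 2653 in WT, 1427 to 1687 in VitC+ and 724 to 858 in VitC+/-. By gene, 4 of 9 were higher and 2 lower against WT, and 2 higher and 2 lower against VitC+. Erythroid genes were higher for 2 of 7 against WT and 1 against VitC+. Skeletal muscle sums ran from 8.84 in VitC+/- replicate 3 to 1511 in VitC+ replicate 2, with 0 of 9 genes called. The part of these shifts in the endothelial values was not tested.

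In the Tet femurs the values are counts divided by a size factor (normalized counts), which are not per length, so they are compared between libraries and not between genes. In Tet1/2 cKO against Ctrl, 9 of the 10 genes had negative log2 differences and Bmx a positive one, and 0 passed the test, as 0% of the 16780 genes tested did in either direction. The median difference over the 10 genes was -0.60 on the scale of log2(normalized count + 1), beside -0.01 over all genes. At an unadjusted p under 0.05, limma gave 1 of the 10 genes and 847 genes in all, edgeR on recovered reads 1 and 778, and DESeq2 2 and 1179. Eng read 3233, 1909 and 2842 normalized counts in Ctrl and 1097, 1544 and 1866 in Tet1/2 cKO. The groups did not overlap, with a log2 difference of -0.82 (95% interval -1.59 to -0.05, limma adjusted p = 0.723).

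Flt1 read 1424, 1357 and 1660 in Ctrl and 739, 831 and 1008 in Tet1/2 cKO, a difference of -0.79 (95% interval -1.63 to 0.05, adjusted p = 0.723). Tie1 read 1806, 1873 and 2102 against 821, 1412 and 1428, a difference of -0.70 (-1.52 to 0.12). The Tet1/2 cKO values of Eng, Flt1, Tie1, Pecam1 (-0.40) and Cldn5 (-0.62) lay wholly below those of Ctrl, as did 10.0% of all genes. Values of Cdh5 (-0.86), Tek (-0.58), Emcn (-0.53) and Kdr (-0.36) overlapped. Bmx read 1082, 800 and 838 in Ctrl and 2861, 1245 and 1114 in Tet1/2 cKO. Its values were wholly above, as for 7.37% of all genes, with a difference of 0.82 (95% interval -0.09 to 1.73, adjusted p = 0.723) that fell to 0.39 without Tet1/2 cKO replicate 1.

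Tet1/2 cKO replicate 1 was the lowest of the 12 libraries for 7 of the 10 genes and the highest for Bmx. Neutrophil genes summed to 2667763 normalized counts there, the highest of the 12 libraries, against 823375 to 1248465 in Ctrl and 1638815 and 1162810 in the other Tet1/2 cKO libraries. Skeletal muscle genes summed to 7247 in that library and to 3929 and 500213 in the other Tet1/2 cKO libraries, against 134980 to 568571 in Ctrl. Osteoblast and osteocyte genes summed to 317099 to 701081 in the Tet1/2 cKO libraries, all below the 1012046 to 1306445 of Ctrl, with 11 of 13 lower in mean and a median difference of -1.20. Adipocyte genes summed to 6026 to 13799 against 16363 to 20415, with a median of -1.06, and no gene of either list passed with limma (3 and 2 had an unadjusted p under 0.05). Without replicate 1 the median difference of the 10 genes was -0.30, against up to -0.81 when another library was left out. The part of these markers in the differences was not tested.

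Single deletions gave no call either. In Tet1 cKO against Ctrl the log2 differences of the 10 genes ran from -0.33 for Bmx to 0.05 for Flt1, with a median of -0.13 and 0 genes past the threshold by limma, edgeR or DESeq2, where 0.00596% of all genes passed in each direction by limma. In Tet2 cKO against Ctrl all 10 differences were positive, from 0.04 for Bmx to 0.50 for Flt1, with a median of 0.31, and again 0 passed by any of the 3 tools, beside 0.00596% of all genes in each direction. No member had an unadjusted p under 0.05 in these comparisons with any of the tools, while limma gave 382 and 368 genes in all. The positive values rested on Tet2 cKO replicate 1: Cdh5 read 5664 there against 1081 and 3128 in replicates 2 and 3, and Emcn 2900 against 466 and 1331. This library was the highest of all 12 for 9 of the 10 genes, all but Bmx, and without it the differences of those 9 genes turned negative, between -0.002 for Eng and -0.43 for Emcn. The same library had the highest sums for the pericyte and smooth muscle (80854 normalized counts), adipocyte (49596) and skeletal muscle (1734796) lists and the lowest for the neutrophil list (394628). Whether these moved the endothelial values was not tested.

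**Figure D3:**
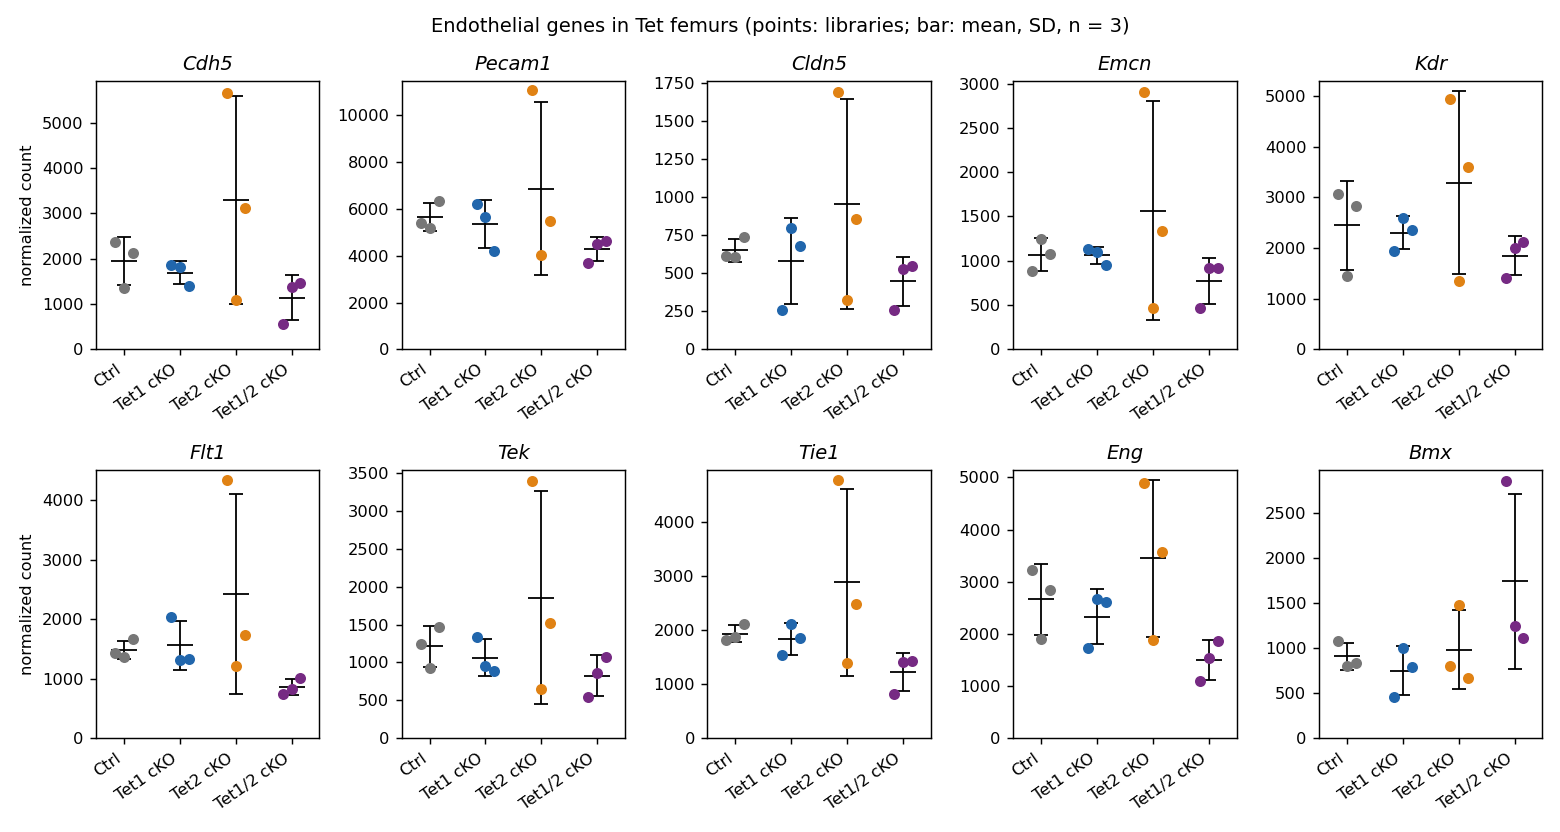
Normalized counts (vertical axis, from 0) of the 10 genes in each library of the Tet femurs, with the mean and SD of 3 libraries as bars. Tet2 cKO replicate 1 is the highest point for every gene but Bmx, whose highest point is Tet1/2 cKO replicate 1.

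None of the ligands passed with limma in the Tet femurs, where 10 of 13 entries were tested. At an unadjusted p under 0.05 stood Pgf in Tet1/2 cKO and Angpt1 in Tet2 cKO (1253 ± 21 against 1838 ± 314, SD, n = 3). Pgf in Tet1/2 cKO was at 321 ± 84 against 681 ± 133 in Ctrl (SD, n = 3; log2 difference -1.10, limma adjusted p = 0.723). Vegfa was at 2873 ± 549 against 4332 ± 1733, and Angpt1 at 2077 ± 205 against 1838 ± 314. Of the 30 wider endothelial genes, 25 had negative differences in Tet1/2 cKO with a median of -0.70, and 0 passed by limma (5 at an unadjusted p under 0.05, all lower). The pericyte and smooth muscle genes, 12 of 12 negative with a median of -0.89, had the same sign.

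Across libraries, most of the 10 genes varied together. Pearson's r of a gene's log2 level with the mean of the other 9 genes was between 0.67 and 0.97 over the 9 VitC femur libraries for all but Cldn5 (0.32) and Bmx (-0.44), and between 0.84 and 0.96 over the 12 Tet femur libraries for all but Bmx (-0.62). These values describe libraries that share groups, depth and cell makeup, and the genes are not independent of each other. Pecam1 had the narrowest range of the 10 genes, 0.92 log2 units in the VitC femurs and 1.59 in the Tet femurs. Outside the 10 genes, the pattern most like their mean belonged in the VitC femurs to Krba1 (r = 0.99), Daam2 (0.97), Fbn2 (0.97), Uaca (0.97) and Ptprk (0.97), out of 12576 genes over 9 libraries. In the Tet femurs it belonged to Mmrn2 (0.98), Npr1 (0.96), Igfbp7 (0.96), Nid1 (0.96) and Tspan9 (0.94), out of 16770 genes over 12 libraries. Mmrn2 is an endothelial matrix protein and Nid1 a basement membrane protein.

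**Figure D4:**
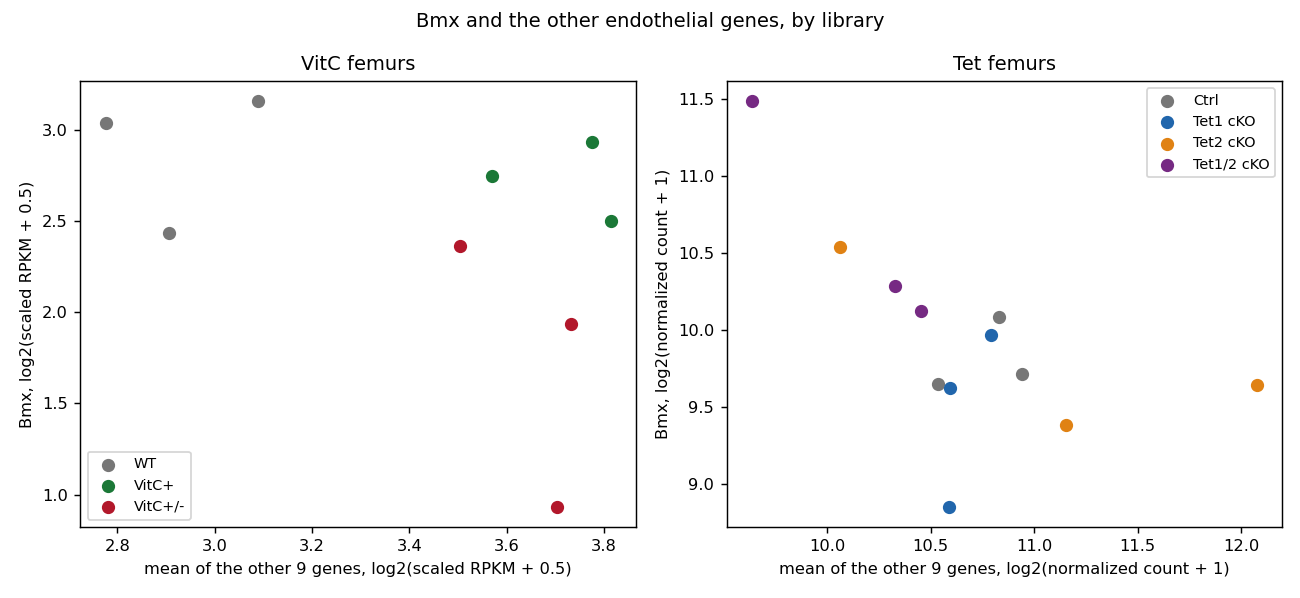
Log2 level of Bmx (vertical axis) against the mean log2 level of the other 9 genes (horizontal axis), with 1 point per library and colours for groups, in scaled RPKM for the VitC femurs and normalized counts for the Tet femurs. In the VitC femurs WT lies to the left and VitC+/- below VitC+, and in the Tet femurs Tet1/2 cKO replicate 1 lies at the upper left.

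The peak lists were read over each gene with 30 kb on each side. A list was deposited per group, called on pooled samples, so values below have no replicate error and no test. Such windows can reach into neighbouring genes, whose peaks were not separated. In the VitC femurs the 5hmC lists hold no peak on the X chromosome, so Bmx has no value there. The length under 5hmC peaks hardly differed between VitC+/- and VitC+: the median log2 ratio over the other 9 genes was 0.00, beside -0.10 over 20558 genes, and 0 genes were lower and 1 higher past 1.5-fold, against 7.26% and 11.4% of all genes. The gene past the limit was Tek, with 27 peaks over 10.9 kb in VitC+/- and 16 peaks over 6.01 kb in VitC+ (log2 ratio 0.76). Of the 27 peaks, 15 overlapped a peak of the VitC+ list (55.6%), and of the 16, 15 did (93.8%). Eng had the most negative ratio, -0.36, from 2 peaks over 0.53 kb and 5 over 0.97 kb. In Cdh5, 9 and 8 peaks covered 4.81 kb in both groups, and the strongest VitC+/- peak lay in an intron 32.0 kb past the start with a fold enrichment of 14.1 over local background. The highest VitC+ fold at Cdh5 was 10.4, while the median fold there was 4.38 in VitC+/- and 5.15 in VitC+. Within 1 kb of a start site, 1 of the 9 genes had a peak in either list, against 27.6% of all genes in VitC+/- and 30.4% in VitC+. That gene was Emcn, with a fold of 3.86 in VitC+/- and 6.03 in VitC+.

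In the Tet femurs the 5hmC cover fell at 9 of the 10 genes past 1.5-fold in Tet1/2 cKO, with a median log2 ratio of -1.06. This is close to the rest of the genome, where the median was -1.02 and 73.8% of 21774 genes were lower and 0.119% higher, and the Tet1/2 cKO list is shorter as a whole (123 Mb under peaks against 273 Mb). At Flt1, 46 peaks over 40 kb in Ctrl stood against 16 over 12.2 kb in Tet1/2 cKO (log2 ratio -1.63). Eng went from 34 peaks over 33.8 kb to 16 over 10.9 kb, Pecam1 from 45 over 44.1 kb to 26 over 20.4 kb, and Kdr from 20 over 15.9 kb to 13 over 7.17 kb. Every Tet1/2 cKO peak at Pecam1, Cldn5, Kdr, Flt1, Tie1 and Eng overlapped a Ctrl peak, while between 25% (Cldn5) and 65% (Kdr) of the Ctrl peaks there overlapped a Tet1/2 cKO peak. Within 1 kb of a start site, 5 of the 10 genes had a peak in Ctrl and 2 in Tet1/2 cKO, against 40.1% and 25% of all genes. The start peaks at Cldn5 (fold 3.53, 0.6 kb upstream), Emcn (5.21) and Bmx (2.33) appeared in the Ctrl list and not in the other. Tek had 1 peak in Ctrl and 0 in Tet1/2 cKO, beside the 16 and 27 of the VitC femur lists, which come from another experiment with peaks of another median length (358 to 372 bp against 586 to 682 bp).

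In MC3T3-E1 cells the 5hmC lists of VitC- and VitC+ differed at most of the 10 genes in both directions. As a whole the VitC- list covers less (149 Mb under peaks against 197 Mb), though it holds more peaks (288862 against 257696). Past 1.5-fold, 5 genes were lower without VitC (Pecam1, Cldn5, Flt1, Eng and Bmx) and 3 higher (Kdr, Tek and Tie1), against 45.8% and 30.6% of all genes, with a median log2 ratio of -0.56 beside -0.42 over all genes. At Flt1, 51 peaks over 34.5 kb with VitC stood against 18 over 9.35 kb without, and at Eng 31 over 19.1 kb against 9 over 4.11 kb. Tie1 had 1 peak over 0.30 kb with VitC and 8 over 4.11 kb without, and Kdr 1 over 0.24 kb and 8 over 2.92 kb. The strongest peak at Flt1 lay 0.7 kb upstream of the start, with a fold enrichment of 28.5 in the VitC+ list and no counterpart in VitC-. A higher fold, 44.5, stood in the VitC- list at Cldn5, where the highest VitC+ fold was 25.5. Within 1 kb of a start site, 2 of the 10 genes had a peak in VitC- and 4 in VitC+, against 20.9% and 39.3% of all genes. Within 10 kb of the start sites the median ratio of the 10 genes turned to 0.12.

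A peak close to the Tek start is shown because it was the only one within 1 kb of that gene's start site in any of the lists. It came from the 5hmC list of MC3T3-E1 cells with VitC, covers 273 bases upstream of the gene, and had a fold enrichment of 5.28 and a -log10 q of 9.97. Capitals mark the 5 CG pairs, the usual place of 5hmC, and the sequence is that of GRCm38.p6.
Tek upstream peak, chr4:94738767-94739039, plus strand: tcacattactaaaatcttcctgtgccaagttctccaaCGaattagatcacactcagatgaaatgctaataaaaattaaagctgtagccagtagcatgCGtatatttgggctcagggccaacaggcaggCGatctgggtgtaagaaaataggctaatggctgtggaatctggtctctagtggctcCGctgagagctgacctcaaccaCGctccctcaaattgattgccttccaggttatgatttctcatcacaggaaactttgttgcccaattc

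The repressive mark H3K27me3, laid down by Polycomb complexes, covered more of the endothelial windows in VitC- than in VitC+ MC3T3-E1 cells. Past 1.5-fold, 7 of 10 genes were higher and 0 lower, against 36.3% and 1.24% of all genes, with a median log2 ratio of 1.16 beside 0.30. The VitC- list is longer as a whole (233 Mb under peaks against 145 Mb). Of the 7 genes, Emcn had only 1 peak over 0.51 kb in VitC- and Tek 5 peaks over 2.38 kb, with none in VitC+. Cdh5 and Tie1 had the widest cover: 52.3 kb in VitC- and 19.7 kb in VitC+ at Cdh5, and 56.2 and 26.7 kb at Tie1, or 71.5% and 33.9% of its window. At Tie1 a peak of 19340 bp spanned the whole gene in VitC-, while VitC+ had more but shorter peaks (21 against 14). At Cdh5 a peak of 14965 bp covered the start in VitC- and 1 of 4431 bp in VitC+. Flt1 and Eng had no H3K27me3 peak in either list, and Kdr stayed within 1.5-fold (3.17 and 1.82 kb). The ratio depended on the measure: the median was 0.51 by number of peaks and 0.00 within 10 kb of the start sites or over peaks at or above the higher median fold. H3K9me3, a mark of heterochromatin, was absent from the windows of Kdr, Tie1, Eng and Bmx in both lists. It was higher in VitC- at Cdh5 (3.59 against 0.48 kb), Pecam1 (5.96 against 3.12 kb), Cldn5 (2.35 against 0 kb) and Flt1 (12.7 against 5.55 kb) and lower at Tek (0.35 against 1.14 kb), so 4 were higher and 1 lower, beside 29.8% and 4.79% of all genes. The median was 0.17, against 0.00 over all genes. The VitC- list of H3K9me3 is also longer as a whole (66.8 Mb under peaks against 44.0 Mb). None of the 10 genes had an H3K9me3 peak within 1 kb of its start. RNA levels of the 10 genes in MC3T3-E1 cells were not analysed here.

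**Figure D5:**
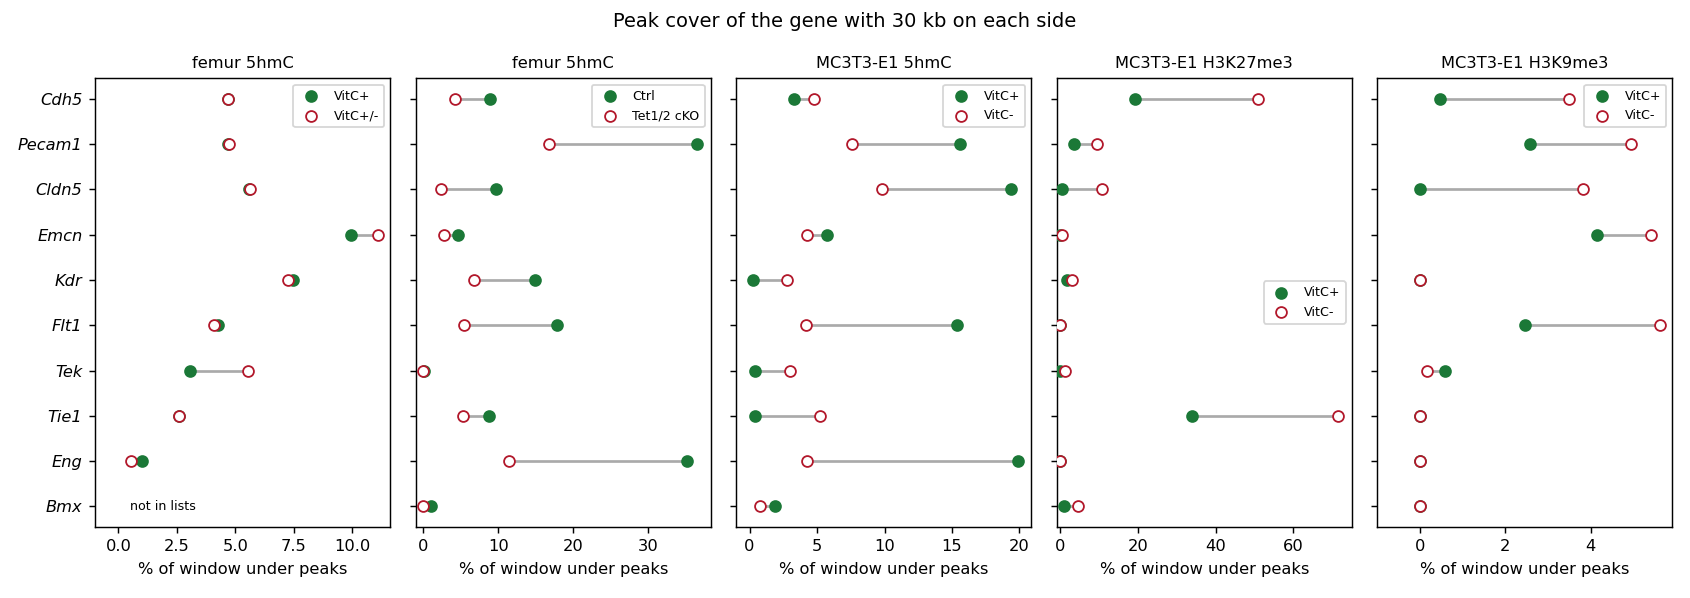
Share of each gene's window (gene with 30 kb on each side) under peaks, in percent (horizontal axis, with its own scale in each panel), for 5 pairs of lists, with filled points for the group with VitC or with wild-type Tet genes and open points for the other. The open points lie left of the filled ones at all 10 genes in the Tet femur panel, and right of them at 8 genes in the H3K27me3 panel.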

How the data were processed

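The 10 genes and the marker lists were chosen with earlier results of these data known. Per the submitters' processing notes, RNA reads went through FastQC 0.72, Trim Galore 0.4.3.1, STAR 2.6.0b-1, featureCounts 1.6.3 and DESeq2 2.11.40.2, and immunoprecipitation reads through BWA 0.7.15.1 and MACS2 2.1.1.20160309.6, on mm10. The authors deposited RPKM per library for the VitC femurs. The authors deposited a normalized count signal (counts divided by size factors) for the Tet femurs. The deposited fold enrichment of a peak is a ratio over local background by MACS2, and the deposited -log10 q values are also from MACS2. The deposited pileup signal was not used.

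RPKM were divided by median-of-ratios factors (0.746 to 1.111). Genes with an RPKM of at least 1 (pseudocount 0.5) or a normalized count of at least 10 (pseudocount 1) in 3 libraries were tested with limma 3.58.1 (eBayes with trend, two-sided, all libraries of the experiment in 1 fit, Benjamini-Hochberg over all genes tested, threshold 0.05). The study states 3 biologically independent animals per group. Whole reads were recovered from the Tet table in all 12 libraries (100.00% of values whole within 0.02, against 3.66 to 4.26% as deposited) for edgeR 4.0.16 and DESeq2 1.42.0 as alternatives. Peaks overlapping a gene with 30 kb on each side by at least 1 bp were counted, and ratios of covered length had 1000 bp added to each length. The histone lists reach down to a -log10 q of 1.01. The ChIP cells were grown for 7 days by the methods and for 28 by the labels. The steps were tested on simulated data. The endothelial genes were all named. From the ligand list any gene could be named, from other lists the 3 of highest level, and exceptions are stated. R 4.3.3 and Python 3.11.15 were used.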

Additional observations from a re-analysis of the deposited data

How the results depend on the processing

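The number of the 10 genes past the threshold in VitC+/- against VitC+ (0) became 1 with only the 6 libraries compared, and ran from 0 to 1 with single libraries left out (1 without VitC+/- replicate 2, and 1 without WT replicate 1, which was added after seeing the data). Against WT (7) it ran from 4 to 8 with single libraries left out, and from 6 to 7 under the other alternatives. Flt1 was lost with the RPKM as deposited (adjusted p = 0.0553) and Bmx without the filter (0.0626) or with only the 6 libraries compared (0.0698). Calls for Cdh5, Emcn, Tie1 and Eng held under all 13 alternatives run. In WT against VitC+ (0) it became 6 with the replicate number as a block and ran from 0 to 4 with single libraries left out. The same-number correlations of deviations from group means lay between -0.49 and 0.46. With so few libraries per group they cannot settle whether the numbers pair the samples. Over all genes the block gave 2172 calls against VitC+ (1694 without it) and 4468 against WT (3905 without it). The block changed no other count of calls among the 10 genes by more than 1.5 times (0 in the 3 Tet comparisons, 0 against VitC+ and 7 against WT). In the 3 Tet comparisons the count was 0 under every alternative.

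With the RPKM as deposited, 54.0% of the calls over all genes in VitC+/- against VitC+ were higher, against 40.9% with scaling, and the Tie1 difference turned to 0.093. In Tet1 cKO the Emcn difference of 0.003 turned to -0.019 with TMM factors, -0.030 with edgeR and -0.006 with DESeq2. Leaving out single libraries also turned signs. In VitC+/- against VitC+ the ranges were -0.129 to 0.024 for Tie1, -0.031 to 0.192 for Pecam1 and -0.025 to 0.339 for Emcn, and against WT -0.689 to 0.452 for Cldn5. In Tet1 cKO they were -0.128 to 0.123 for Emcn, -0.366 to 0.176 for Kdr, -0.158 to 0.154 for Flt1, -0.62 to 0.182 for Cldn5, -0.192 to 0.038 for Tie1, -0.407 to 0.02 for Eng and -0.202 to 0.075 for Pecam1. In Tet2 cKO they were -0.047 to 1.15 for Cdh5, -0.253 to 0.472 for Pecam1, -0.302 to 0.891 for Cldn5, -0.426 to 0.892 for Emcn, -0.079 to 0.857 for Kdr, -0.031 to 0.891 for Flt1, -0.258 to 0.933 for Tek, -0.05 to 0.836 for Tie1, -0.002 to 0.685 for Eng and -0.304 to 0.274 for Bmx. The count over all genes against VitC+ (1694) was 876 with the RPKM as deposited (403 lower, 473 higher), 714, 493 and 563 without VitC+ replicates 1, 2 and 3, and 489 without VitC+/- replicate 1. Against WT (3905) it was 2286 without WT replicate 3 and 2377 without VitC+/- replicate 1. In WT against VitC+ (0) it was 658 without WT replicate 1, 770 with the replicate block, 8 with only the 6 libraries compared and 5 with a pseudocount of 0.1. In the Tet femurs, DESeq2 gave 10, 24 and 13 calls in Tet1/2, Tet1 and Tet2 cKO, against 0, 2 and 2 by limma.

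The median peak ratio of the 10 genes moved from -1.061 to -0.414 in the Tet femurs over peaks at or above the higher median fold, and from -0.560 to 0.119 for 5hmC in MC3T3-E1 cells within 10 kb of the start. For H3K27me3 it moved from 1.160 to 0.000 within 10 kb of the start, 0.000 over peaks at or above the higher median fold and 0.511 by number of peaks. Under the other alternatives the medians were -1.168 to -1.021 in the Tet femurs, -0.777 to -0.434 for 5hmC in MC3T3-E1 cells and 0.704 to 1.063 for H3K27me3. The cause of these changes was not tested. The 3 libraries per group leave wide intervals, and pooled peak lists give no replicate error.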
